A study of Mus musculus with 15 samples.

Results

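The genes described here are 7 members of the interleukin-17 (IL-17) axis: Il17a, Il23a, Il17ra, Il17rc, Traf3ip2, Nfkbiz and Zc3h12a. They were taken as the probe sets whose single gene symbol in the platform annotation is 1 of these names. This gave 12 of the 45101 probe sets, and 7 of the 18193 genes named by a probe set with 1 symbol. Total RNA of mouse knee joint synovium, the lining tissue of the joint, was hybridized to 15 Affymetrix arrays, 3 for each of 5 groups. The naive group is labelled healthy. The other 4 groups had collagen-induced arthritis (CIA) and were graded by swelling as none, mild, moderate or severe. CIA is an autoimmune arthritis raised against cartilage collagen: per the labels, 100 ug of type II collagen in FCA was given on day 0, and 100 ug was given i. p. on day 21. The same protocol text stands on the naive samples and was read as a text for the whole series. Strain, sex, age and the day of sampling are not given in the sources used here. Nothing in the labels says that the 3 arrays of a group came from separate animals, so the p-values rest on sample-to-sample spread that may be technical.

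IL-17A is a cytokine of type 17 T cells and other lymphocytes, and IL-23, of which Il23a encodes the p19 subunit, sustains those cells. IL-17A binds a receptor made of the chains IL-17RA and IL-17RC on stromal, epithelial and myeloid cells, and the adaptor Act1, the product of Traf3ip2, carries the signal to NF-kappaB and C/EBP factors and to mRNA stability. IkappaB-zeta (Nfkbiz) is a nuclear co-activator for part of the induced genes, and Regnase-1 (Zc3h12a) is a ribonuclease that degrades inflammatory mRNAs. In arthritic joints the axis is known for drawing in neutrophils and for inducing matrix-degrading enzymes.

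Promoter sequences were matched for 3 of the 7 genes in RefSeq, build GRCm38.p6: the ligand Il17a, the receptor chain Il17rc and the ribonuclease Zc3h12a. They are shown because no window was matched for the other genes, and they were not chosen by their pattern in the joint. The window runs from 250 bases before to 50 bases after the annotated start, 5′ to 3′ on the gene's strand. Capitals mark TATAAA in Il17a and GGGCGG, or its reverse complement, in the other 2 promoters.

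Il17a, chr1:20730655-20730954, plus strand: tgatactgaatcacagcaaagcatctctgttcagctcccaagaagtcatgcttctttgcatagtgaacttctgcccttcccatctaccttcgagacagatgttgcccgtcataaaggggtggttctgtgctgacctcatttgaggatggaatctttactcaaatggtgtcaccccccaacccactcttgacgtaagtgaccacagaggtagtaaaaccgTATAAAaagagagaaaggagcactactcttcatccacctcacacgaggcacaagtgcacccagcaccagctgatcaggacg

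Il17rc, chr6:113471205-113471504, plus strand: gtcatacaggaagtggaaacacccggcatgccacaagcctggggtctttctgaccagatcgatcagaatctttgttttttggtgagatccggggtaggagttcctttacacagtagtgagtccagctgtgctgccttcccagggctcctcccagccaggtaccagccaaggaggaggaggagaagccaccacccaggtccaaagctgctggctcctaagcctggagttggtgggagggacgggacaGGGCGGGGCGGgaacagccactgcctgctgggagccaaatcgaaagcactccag

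Zc3h12a, chr4:125127832-125128131, minus strand: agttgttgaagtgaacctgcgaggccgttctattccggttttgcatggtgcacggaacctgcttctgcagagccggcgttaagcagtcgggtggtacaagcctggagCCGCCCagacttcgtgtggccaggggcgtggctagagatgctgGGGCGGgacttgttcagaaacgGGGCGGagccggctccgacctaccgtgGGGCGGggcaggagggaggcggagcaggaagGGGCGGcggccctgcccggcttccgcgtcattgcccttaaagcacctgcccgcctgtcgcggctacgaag

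The Il17a window holds 1 TATAAA, which starts 31 bases before the annotated start, and no GGGCGG. The Il17rc window holds 2 overlapping GGGCGG matches around the start, and the Zc3h12a window holds 5 upstream of it. GC content was 48.3% for Il17a, 58.7% for Il17rc and 65.7% for Zc3h12a. Over 32851 RefSeq promoter windows of the same length, TATAAA was present in 13.6% and GGGCGG in 35.7%, on either strand. These 2 motifs were chosen after the sequences were seen. The kappaB consensus and the motifs TTCNNNGAA and TTGCNNAA, searched on both strands, had 0 matches in the 3 windows and were present in 8.46%, 8.3% and 10.8% of all windows. A match or its absence is a description of these letters only.

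All signals are MAS5 intensities with a trimmed mean of 150 on every array. Median signal was 36.3 to 47.6, the 40th percentile was 23.4 to 31.1, and replicate arrays correlated at 0.962 to 0.983 over all probe sets. Mild replicate 2 lay apart from the other mild arrays on the first principal component (-7.34 against 18.5 and 35.7). The 6 fibroblast markers, the synovial Prg4, Pdpn and Pdgfra among them, were above the 40th percentile on all naive arrays and summed to 5826 to 6258 in naive joints and 21111 to 29909 in severe swelling. Skeletal muscle markers were also bright and summed to 47885 to 59242 in naive joints. Neutrophil markers summed to 80.8 to 96.7 in naive joints, 363.2 to 2401 with no swelling and 8704 to 12043 with severe swelling. Macrophage markers summed to 1268 to 1382 in naive joints and 4604 to 6047 with severe swelling, and T cell markers to 83 to 154.2 and 132.7 to 227. The 3′ to 5′ signal ratio of actin also moved, from 0.978 ± 0.0764 in naive joints to 1.25 ± 0.0294 in severe swelling (SD, n = 3). The part of these shifts in the results on the 7 genes was not tested. In bulk tissue, fewer cells of a type and less RNA per cell cannot be told apart.

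Transcripts of both receptor chains, of the co-activator Nfkbiz and of the ribonuclease Zc3h12a rose in swollen joints, Il17ra by 8.39-fold and Nfkbiz by 8.52-fold in severe swelling. For Zc3h12a this held for 1 of its 2 probe sets, and the other gave a log2 fold change of -0.43 that was not called. The Il17rc rise also came from 1 of 2 probe sets, and its naive signals were all below the array's 40th percentile. In severe swelling the other Il17rc probe set, which was dim on all arrays, gave 0.26 and was not called. Transcripts of the ligand Il17a and the adaptor Traf3ip2 passed no test, and Il23a was too dim for the signal filter. The filter asked that a gene exceed the 40th percentile of the array's signals on 3 or more arrays, which left 14309 genes, 6 of the 7 among them. Fold changes are on the log2(signal + 16) scale, which understates dim genes. A call is a Benjamini-Hochberg adjusted p under 0.05 over all genes tested in limma.

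**Figure D1:**
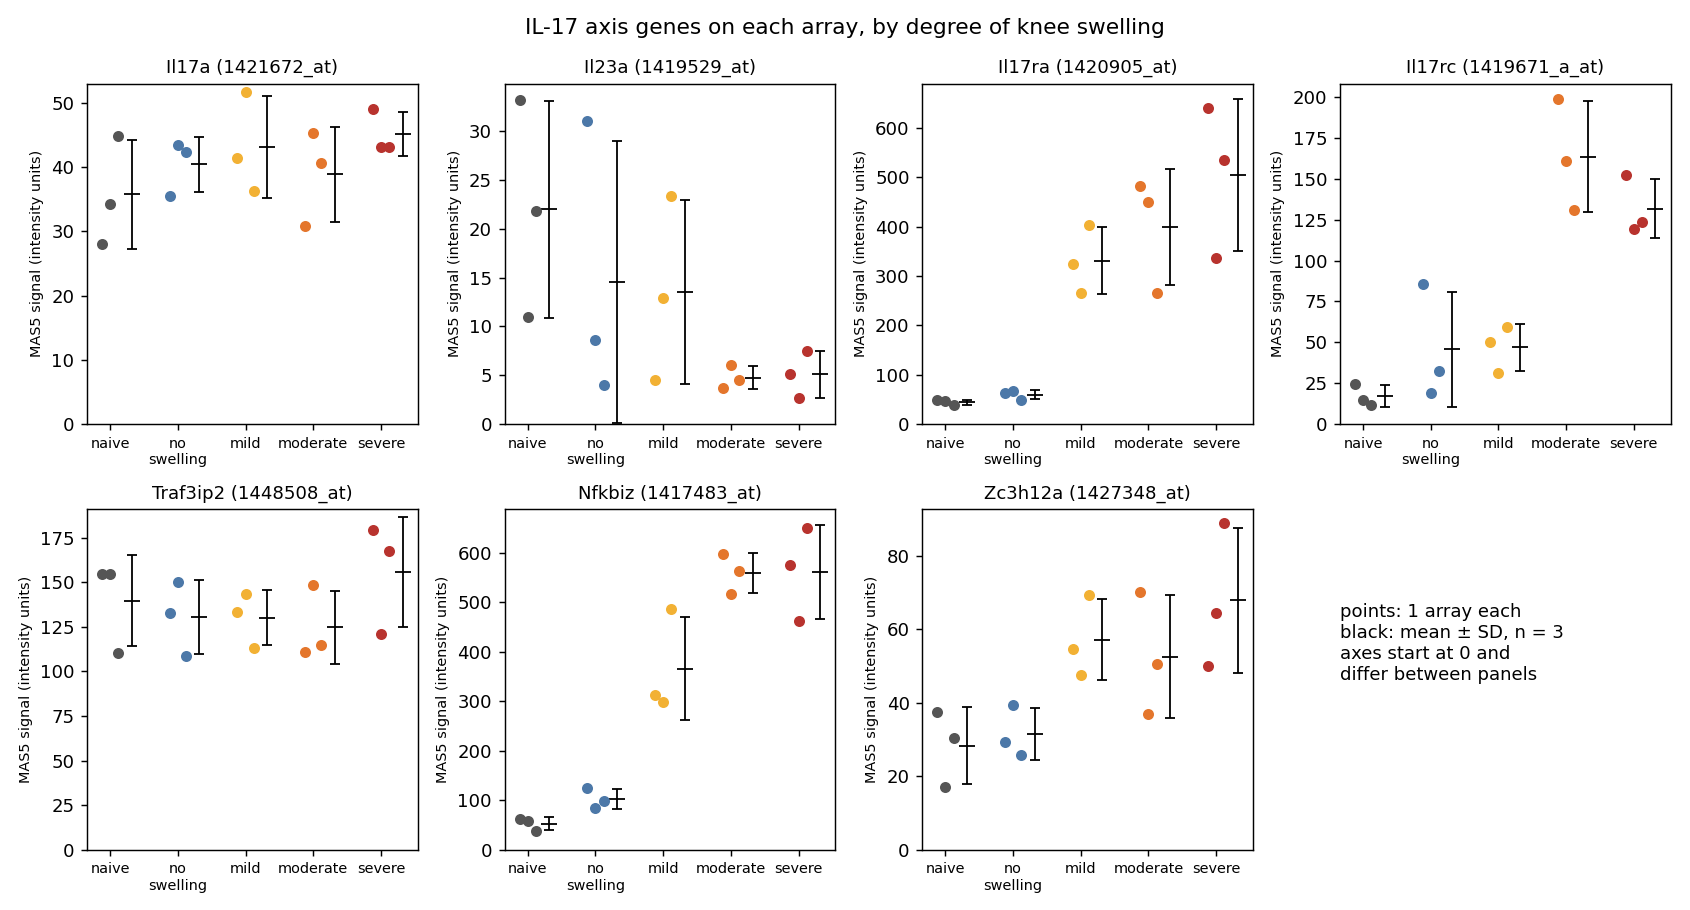
MAS5 signal (intensity units) of the 7 genes on each of the 15 arrays, by group, 1 point per array; black marks give the group mean ± SD, and each panel has its own axis from 0. Il17ra and Nfkbiz have every swollen array above every naive and unswollen one, whereas the Il17a and Traf3ip2 arrays of all groups overlap. The share of all genes that separate like Il17ra and Nfkbiz is not given.

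Il17a, the ligand, had signals of 28.1, 34.3 and 44.9 in naive joints and 35.6, 43.5 and 42.3 in CIA joints with no swelling. Signals were 41.4, 51.8 and 36.3 in mild, 30.8, 45.3 and 40.6 in moderate and 49.1, 43.2 and 43.2 in severe swelling. Each CIA group overlapped the naive arrays, and 14 of the 15 arrays lay above their own 40th percentile. Severe swelling against naive gave a log2 fold change of 0.25 ± 0.18 (SE; limma, Benjamini-Hochberg adjusted p = 0.253), a fold change of 1.19 with a 95% interval from 0.914 to 1.55. The F test across the 5 groups gave an adjusted p of 0.715 in limma. No alternative processing made a call for Il17a in any comparison.

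Il23a, the IL-23 p19 subunit, had signals of 33.2, 11 and 21.8 in naive joints and 31.0, 8.6 and 4.0 in CIA joints with no swelling. Signals were 4.5, 12.9 and 23.3 in mild, 3.7, 6.0 and 4.5 in moderate and 5.1, 2.7 and 7.5 in severe swelling. The moderate and severe arrays lay below all 3 naive arrays, but only 2 of the 15 arrays exceeded their 40th percentile. What share of all genes lies apart in this way is not given here. In the fit of all 18193 genes with no filter, it was lower by log2 fold changes of -0.83 ± 0.30 in moderate (SE; limma, adjusted p = 0.0351) and -0.81 ± 0.30 in severe swelling (adjusted p = 0.0390). In that fit 43.4% and 44% of all genes were called in these comparisons. The severe call was lost when naive replicate 1 (log2 fold change -0.60, adjusted p = 0.162), naive replicate 3 (-0.79, 0.0881) or any severe replicate was left out (adjusted p 0.0528 to 0.106). The moderate call was lost without naive replicate 1 (-0.63, adjusted p = 0.150), naive replicate 3 (-0.82, 0.0811) or any moderate replicate (0.0590 to 0.0899), and with scaling on the hybridization controls (-0.62, 0.0524). A probe set this close to the array's floor gives no firm level.

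Il17ra encodes the chain shared by several IL-17 family receptors. Its signals were 48.4, 46.3 and 38.1 in naive joints and 62.3, 66.9 and 48.7 with no swelling. They were 324.5, 266.4 and 403.1 in mild, 481.9, 451.2 and 265.8 in moderate and 641.5, 337.5 and 535.7 in severe swelling. Every swollen array lay above every naive and unswollen array, and the mild, moderate and severe groups overlapped one another. The share of all genes with such a separation is not given here. The log2 fold change from naive was 2.51 in mild (limma, adjusted p = 2.09e-06), 2.75 in moderate (3.36e-07) and 3.07 ± 0.24 in severe swelling (SE; 1.48e-07). With no swelling it was 0.32 ± 0.24 (adjusted p = 0.521), although the groups did not overlap, as for 12.9% of the genes tested in that direction. The second probe set of Il17ra gave -0.35 there (limma, adjusted p = 0.592). That probe set exceeded the 40th percentile on 0 of the 3 unswollen arrays, so this value is not firm. The largest step lay between no swelling and mild swelling (2.19, adjusted p = 2.03e-05). The steps from mild to moderate (0.23, adjusted p = 0.598) and from moderate to severe (0.32, adjusted p = 0.867) were not called. All 17 alternatives called the severe difference, with log2 fold changes from 2.36 to 3.44.

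Il17rc encodes the partner chain that IL-17A signalling needs. Its signals were 24.5, 15.0 and 11.5 in naive joints and 85.7, 18.7 and 32.6 with no swelling. They were 50.2, 31.1 and 59.3 in mild, 198.8, 160.9 and 130.8 in moderate and 152.5, 119.2 and 123.8 in severe swelling. No array of the moderate and severe groups came as low as any other array, and replicate 1 of the unswollen joints was above all mild arrays. How many of all genes separate in this way is not given here. The gene exceeded the 40th percentile on 11 arrays and on 0 of the 3 naive arrays, so it passed the filter through CIA groups, and a fold change from naive starts from a level near the array's floor. The log2 fold change from naive was 2.45 in moderate (limma, adjusted p = 7.70e-06) and 2.18 ± 0.31 in severe swelling (SE; 2.26e-05), which is 4.52-fold. Mild swelling gave 0.92 (adjusted p = 0.0260), a call lost without naive replicate 2 or 3 or mild replicate 1 or 3 (adjusted p 0.0658 to 0.104) and with a pseudocount of 64 (0.0571). No swelling gave 0.77 ± 0.31 (adjusted p = 0.186).

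From no swelling to mild swelling Il17rc had a log2 fold change of 0.15 (limma, adjusted p = 0.736). That value rests on the unswollen arrays: it was 0.59 (adjusted p = 0.0834) without no-swelling replicate 1, -0.19 (0.657) without no-swelling replicate 2 and 0.05 (0.925) without no-swelling replicate 3. It was 0.35 (0.448) without mild replicate 2, and 0.76 (0.0309), a call, with scaling on the hybridization controls. From mild to moderate swelling Il17rc rose by 1.52 ± 0.31 (SE; limma, adjusted p = 0.0120). That call was lost without mild replicate 2 (1.33, adjusted p = 0.0617) and with the mean of both probe sets (0.57, 0.124). The log2 ratio of Il17ra to Il17rc, which was examined after the values were seen, rose by 2.04 from no swelling to mild swelling. It fell by 1.29 from mild to moderate swelling. The ratio ranged from -0.38 to 1.26 with no swelling, from 2.36 to 2.58 in mild and from 0.94 to 1.40 in moderate swelling. An exact two-sided permutation test of 3 arrays against 3 cannot go below p = 0.1, which both steps gave (0.15 after Benjamini-Hochberg adjustment over 3 steps), so a difference between the chains was not shown.

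Traf3ip2, the Act1 adaptor, had signals of 154.4, 154.6 and 110.2 in naive joints and 132.7, 150 and 108.4 with no swelling. They were 133.4, 143.6 and 113.3 in mild, 110.7, 148.4 and 114.8 in moderate and 179.3, 120.9 and 167.3 in severe swelling. All 5 groups overlapped. Severe swelling against naive gave a log2 fold change of 0.14 ± 0.18 (SE; limma, adjusted p = 0.535), a fold change of 1.10 with a 95% interval from 0.848 to 1.43. The F test gave an adjusted p of 0.612 in limma. Unlike Il17a, Traf3ip2 lay well above the 40th percentile on all 15 arrays.

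Nfkbiz, the IkappaB-zeta co-activator, had signals of 61.9, 57.4 and 37.2 in naive joints and 124.2, 85.2 and 98.9 with no swelling. They were 313.5, 298.5 and 486.8 in mild, 598.2, 516.9 and 563.9 in moderate and 575.5, 461.6 and 649.8 in severe swelling. The unswollen arrays lay above every naive array, as for 12.9% of the genes tested. The moderate arrays lay above every mild array, and the share of all genes for which this holds is not given here. The log2 fold change from naive was 2.47 in mild (limma, adjusted p = 4.72e-07), 3.10 in moderate (5.75e-08) and 3.09 ± 0.20 in severe swelling (SE; 4.64e-08). The difference between severe and moderate swelling was 0.00 (adjusted p = 0.998). From mild to moderate the difference was 0.62 (adjusted p = 0.0691), and it was called without mild replicate 3 (0.84, 0.0102).

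Of the 6 genes tested, Nfkbiz alone was called in joints with no swelling, where 3.32% of all genes tested were called and 1.52% were higher. Its log2 fold change was 0.81 ± 0.20, or 1.75-fold (SE; limma, adjusted p = 0.0383). It was called in 6 of 17 alternatives, with adjusted p from 0.0108 to 0.714. It was lost without naive replicate 1, 2 or 3 or no-swelling replicate 1 or 3 (log2 fold change 0.64 to 0.91, adjusted p 0.0637 to 0.168). The summed neutrophil markers of the same 3 unswollen arrays were 2401, 894.5 and 363.2.

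Zc3h12a, the Regnase-1 ribonuclease, had signals of 37.6, 17.1 and 30.4 in naive joints and 29.4, 39.5 and 25.8 with no swelling. They were 54.6, 47.7 and 69.4 in mild, 70.2, 37.1 and 50.6 in moderate and 50, 64.6 and 89.1 in severe swelling. Mild and severe arrays lay above every naive array, and 1 moderate array fell within the naive range. For such a separation the share of all genes is not given here. The log2 fold change from naive was 0.74 in mild (limma, adjusted p = 0.0215), 0.63 in moderate (0.0354) and 0.92 ± 0.24 in severe swelling (SE; 0.00383), or 1.89-fold. The mild call was lost without naive replicate 2 (0.54, adjusted p = 0.105) or mild replicate 3 (0.62, 0.0942), and with the mean of both probe sets (0.33, 0.134). The moderate call was lost without naive replicate 2 (0.43, adjusted p = 0.164) or naive replicate 3 (0.68, 0.0541), and without moderate replicate 1 (0.45, 0.163) or moderate replicate 3 (0.64, 0.0695). It was also lost with quantile normalization (0.55, 0.0623), with array medians aligned (0.56, 0.0638), in a fit of only the groups compared (0.63, 0.0552) and with the mean of both probe sets (0.25, 0.221).

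**Figure D2:**
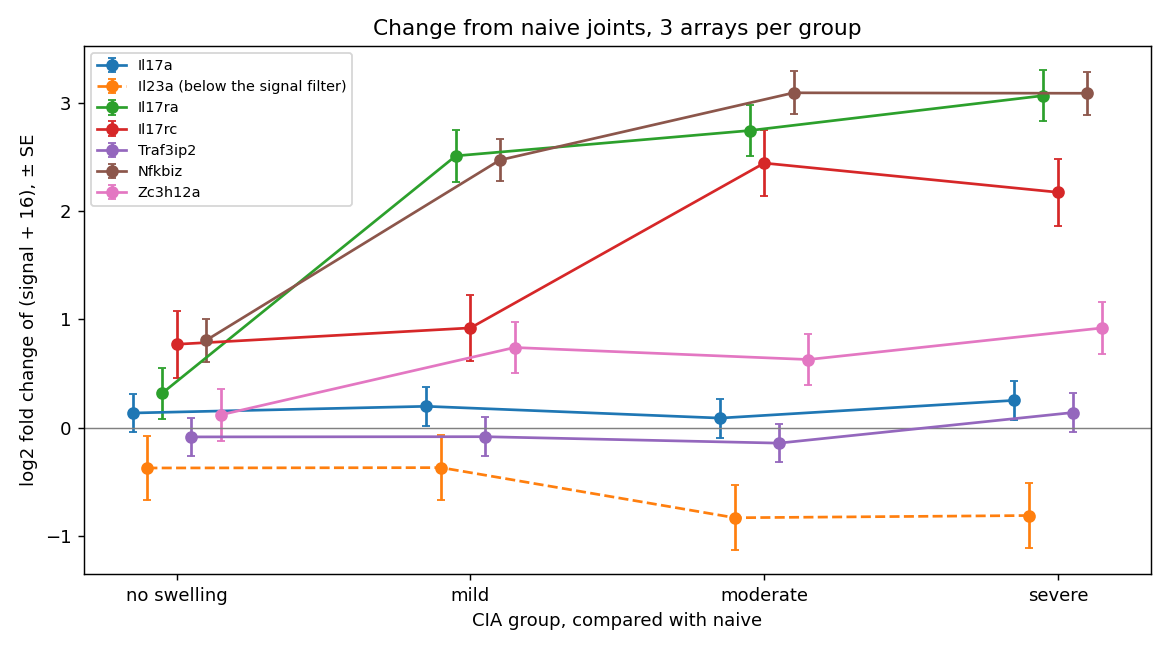
Log2 fold change of (signal + 16) from naive joints with its SE for the genes, by CIA group, 3 arrays per group. Il17ra, Il17rc and Nfkbiz climb above 2 by severe swelling, Zc3h12a stays under 1, and Il17a and Traf3ip2 lie near 0, and Il23a, dashed because it is below the signal filter, lies under 0.

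Probe sets of the same gene did not all give the same picture. For Il17ra, the second probe set had signals of 12.7 to 26.8 in naive and 144.9 to 297.0 in severe joints, a log2 fold change of 2.69 ± 0.30 (SE; limma over all 31485 probe sets that passed the filter, adjusted p = 2.15e-06). In that fit 49.6% of the probe sets were called in severe swelling. The second Il17ra probe set exceeded the 40th percentile on 1 of the 3 naive and 0 of the 3 unswollen arrays. It passed the filter through swollen groups, so its fold change from naive is not firm and is no support by itself. For Nfkbiz, all 3 probe sets rose in severe swelling, the other 2 by 2.07 ± 0.16 (adjusted p = 1.37e-07) and 2.33 ± 0.24 (1.10e-06). In unswollen joints 1 of these rose by 0.80 ± 0.16 (adjusted p = 0.0153, where 2.75% of probe sets were called) and the other gave 0.40 (0.412). The probe set that rose there exceeded the 40th percentile on 1 of the 3 naive arrays, so its fold changes from naive are not firm.

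The second probe set of Il17rc was below the 40th percentile on all 15 arrays, with signals of 1.4 to 15.9, and gave 0.26 ± 0.20 (limma, adjusted p = 0.354). The second probe set of Zc3h12a pointed the other way. Its signals were 46.1, 46.2 and 55.2 in naive and 22.3, 30.6 and 47.5 in severe joints, a log2 fold change of -0.43 ± 0.22 (SE; limma, adjusted p = 0.127). The mean of both Zc3h12a probe sets gave 0.25 (adjusted p = 0.222), so the call for the gene rests on the probe set with the higher overall mean. That mean was taken over all 15 arrays, so it favours a probe set that rises with swelling. In naive joints the second probe set was the brighter, with a mean signal of 49.2 against 28.4. With no swelling the means were 47.6 for the second and 31.6 for the probe set used. Which transcripts each probe set detects was not analysed here.

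**Figure D3:**
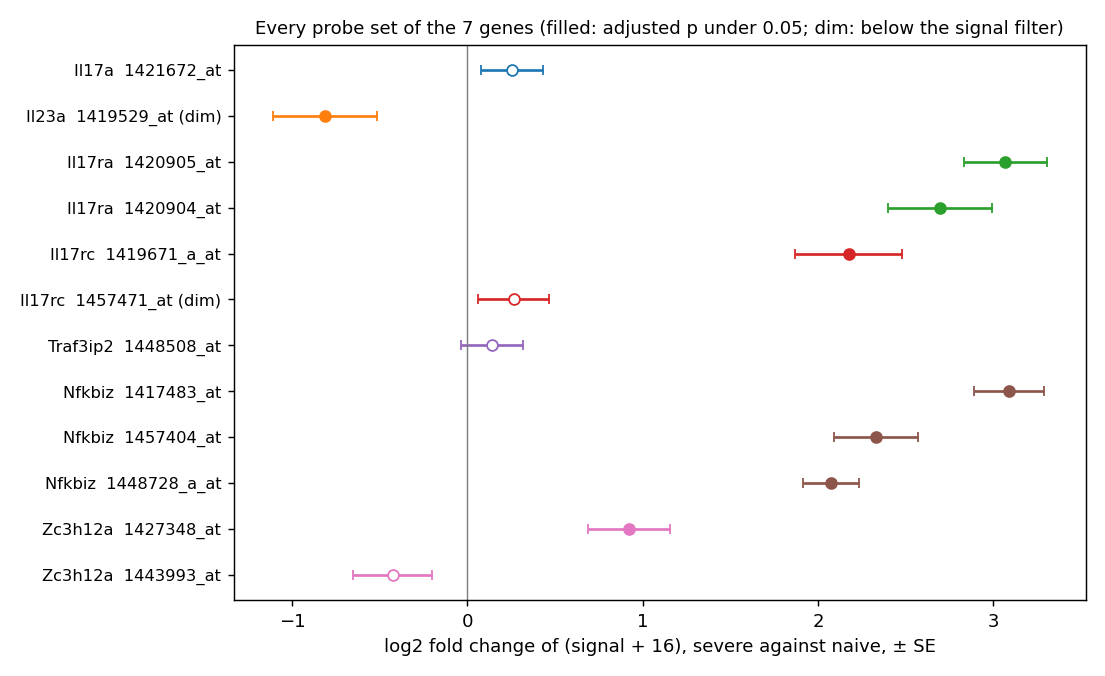
Log2 fold change of (signal + 16), severe swelling against naive, with its SE for all 12 probe sets of the 7 genes; filled points passed adjusted p under 0.05 and dim ones were below the signal filter. The 2 probe sets of Il17ra and the 3 of Nfkbiz lie to the right of 0, and those of Zc3h12a lie on opposite sides of it.

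Counted over the 6 genes tested, 4 rose in each of mild, moderate and severe swelling against naive: Il17ra, Il17rc, Nfkbiz and Zc3h12a. Zc3h12a is counted by its probe set with the higher overall mean, and its other probe set was not called. Of all genes tested 40%, 54.5% and 55.1% were called in these comparisons, and 22.9%, 30.8% and 32.2% were higher. Il17rc exceeded the 40th percentile on 0 of the 3 naive arrays and passed the filter through CIA groups. Its place in the counts against naive and in the F test is no support by itself. The mild count fell to 2 without mild replicate 3 or naive replicate 2, where only Il17ra and Nfkbiz were called. The same 4 were called higher when severe was set against no swelling, where 54.9% of all genes were called and 33% were higher. They were also called higher for the slope over the 4 CIA groups, where 56.1% were called and 33.5% were higher. For Zc3h12a the call against no swelling was lost without severe replicate 3 (0.63, adjusted p = 0.0552). Its slope of 0.23 (adjusted p = 0.0165) was lost without no-swelling replicate 3 (0.20, 0.0576) or severe replicate 3 (0.18, 0.0794), with quantile normalization (0.17, 0.0672) and with array medians aligned (0.17, 0.0753). The mean of its probe sets gave no call in either (0.21, 0.314, and 0.05, 0.404). Mild against no swelling called Il17ra and Nfkbiz higher, beside 38.4% of all genes called and 22.9% higher. Zc3h12a was close to the threshold there (0.62, limma adjusted p = 0.0505) and was called in 6 of 17 alternatives with the same probe set. Moderate against mild called Il17rc higher, beside 6.59% called and 3.21% higher. Severe against moderate called 0 of the 6 in limma. There 0% of all genes were called, and 884 genes had an unadjusted p under 0.05. The F test across the 5 groups called the same 4 genes, beside 60.5% of all genes. The median log2 fold change of all genes in severe swelling was 0.11, and 58.5% of the calls were higher. That share was 47.2% with array medians aligned and 81.9% when arrays were scaled on the hybridization controls, where the all-gene median was 0.42.

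Across the 15 arrays Pearson's r on the log2 scale was 0.969 for Il17ra and Nfkbiz, 0.874 for Il17rc and Nfkbiz and 0.806 for the 2 receptor chains. For Zc3h12a it was 0.812 with Il17ra, 0.800 with Nfkbiz and 0.610 with Il17rc. The points share the same arrays and groups, so these values describe the group pattern and carry no p. The genes most like Il17ra were Slfn1 (r = 0.994), Litaf (0.993) and Srm (0.993), each over 15 arrays. Those most like Nfkbiz were Btg1 (0.989), Smim3 (0.989) and Cpne8 (0.988). Those most like Il17rc were Atp6v1c1 (0.954), a proton pump subunit, Cxcl10 (0.953), a chemokine, and Mmp13 (0.945), a collagenase. For Zc3h12a they were Orm2 (0.917), Themis2 (0.903) and Engase (0.894). The highest values for Traf3ip2 were lower (Gpr158, 0.863; Mycn, 0.853; Ccn6, 0.844), and those for Il17a lower still (Nemp1, 0.786; Krt20, 0.771; Ttpa, 0.770).

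The other genes of the pathway were read from lists, in the same fit, where 55.1% of all genes were called in severe swelling and 32.2% were higher. Of the other IL-17 ligands, Il17b, Il17d and Il25 were on the array and all 3 were below the filter, with mean signals of 7.0, 26.2 and 1.9 in naive joints and 8.77, 12.2 and 1.97 in severe swelling. The other receptor chains passed no test in severe swelling: the log2 fold change was -0.39 for Il17rb, -0.13 for Il17rd and -0.18 for Il17re. In moderate swelling Il17re fell by 0.60 (limma, adjusted p = 0.0114). So the rise of receptor transcripts in severe swelling was called for the IL-17A receptor chains, and the difference from the other chains was not tested.

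Of the IL-23 partner and type 17 lymphocyte genes, 10 of 13 were on the array and 8 were tested, of which 4 rose and 2 fell in severe swelling. Their median log2 fold change was 0.50, against 0.11 for all genes, of which 55.1% were called and 32.2% were higher. The risers were the aryl hydrocarbon receptor Ahr (1.81), the transcription factors Batf (1.55) and Stat3 (0.84), and the chemokine receptor Ccr6 (1.02). The genes that fell were the transcription factors Rora (-1.04) and Maf (-1.001). Several of these genes are also expressed outside lymphocytes. The mean naive signal of Batf was 16.4, near the array's floor, so its fold change is not firm. Il12rb1 and Irf4 were not called (log2 fold changes of -0.36 and 0.16), and Il12b and Il21 were below the filter.

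Of 18 signalling genes downstream of the receptor, 8 rose and 2 fell in severe swelling, with a median of 0.34. The share called is close to the 55.1% of all genes, so the count is no result about the list. Among the 8 was Ikbke, whose mean naive signal of 7.27 was under 23.4, the lowest 40th percentile of any array. Ikbke passed the filter through CIA groups, so its fold change from naive is not firm. The transcription factor Cebpd rose by 1.96 ± 0.17 (SE; limma, adjusted p = 3.08e-07) and the kinase Ikbkb by 0.81 (1.77e-04). Usp25, a deubiquitinase that restrains IL-17 signalling, fell by 1.66 (1.27e-05), and the adaptor Tab2 by 0.53 (0.00145). In unswollen joints Cebpd was the only called gene of this list, at 1.55 (adjusted p = 1.32e-04). There 3.32% of all genes tested were called and 1.52% were higher, so 1 call among 18 genes is no result about the list.

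Of the 5 other IkappaB family genes, 4 rose in severe swelling, beside 32.2% of all genes, with a median of 1.77: Nfkbie (3.47), Bcl3 (2.67), Nfkbia (1.77) and Nfkbid (0.86). Nfkbib was not called (-0.17). Of 7 relatives and partners of Regnase-1 in mRNA decay, Arid5a (2.54), Zc3h12d (0.998) and Malt1 (0.64) rose, Zc3h12c (-0.51) and Rc3h2 (-0.38) fell, beside 55.1% of all genes called in either direction, and the median was 0.03. Arid5a protects some of the mRNAs that Regnase-1 degrades, and Malt1 is a protease that cleaves Regnase-1. Mean naive signals of Nfkbie (6.33), Arid5a (13.4) and Zc3h12d (12.5) were under 23.4, the lowest 40th percentile of any array. These genes passed the filter through CIA groups, so the counts and medians of these lists are no support by themselves. Their fold changes from naive are not firm.

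Of the 20 genes known to be induced by IL-17, 17 were tested and all 17 were called higher in severe swelling, beside 32.2% of all genes, with a median of 4.02. Only 5 of the 17 were above the 40th percentile on all 3 naive arrays. The others passed the filter through groups in which they were high, so neither the count nor the median is support by itself, and fold changes from naive signals near the floor are not firm. Cxcl5, a neutrophil chemokine, had a mean signal of 4.47 ± 2.65 in naive and 1723 ± 302 in severe joints (SD, n = 3), and its log2 fold change was 6.40 ± 0.21 (SE; limma, adjusted p = 3.82e-11). Saa3, an acute phase protein, changed by 6.60 ± 0.29 (2.01e-09), and Cxcl1 by 3.53 ± 0.22 (3.48e-08). In unswollen joints 10 of the 17 rose, beside 1.52% of all genes, with a median of 1.35 against -0.01 for all genes. The same limit of the filter holds there. Among the 10 were Saa3 (3.42, adjusted p = 1.55e-05), Cxcl5 (2.004, 9.63e-05) and Il6 (2.80, 3.43e-04). Csf2, Csf3 and Defb4 were below the filter. As background, these genes are also induced by other cytokines, and S100a8 and S100a9 are abundant in neutrophils.

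**Figure D4:**
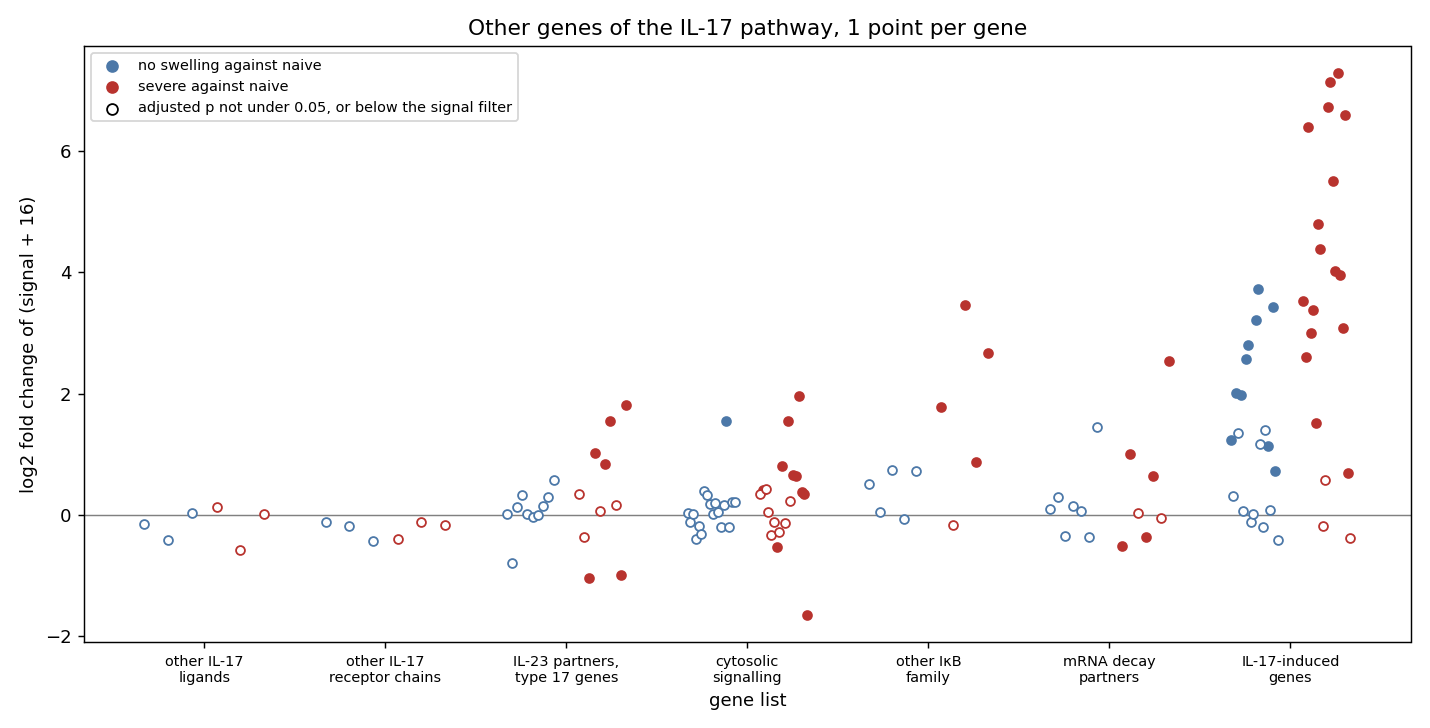
Log2 fold change of (signal + 16) of the other pathway genes on the array, 1 point per gene, by list, for unswollen and severely swollen joints against naive. Open points were not called or were below the signal filter. Genes known to be induced by IL-17 reach 7.29 in severe swelling, whereas the other receptor chains lie between -0.39 and -0.13.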

How the data were processed

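Total RNA from the knee synovium of 15 samples was biotin-labelled and run on 1 Affymetrix array each, per the labels. The deposited table holds the authors' MAS5 intensity signals of 45101 probe sets, linear and scaled to a trimmed mean of 150; MAS5 is named in the submitters' processing notes without a version. Groups of 3 arrays were taken from the sample titles. Probe sets were named through the platform annotation, which can be old: 34958 had 1 symbol, 932 several, and 9211 were unnamed here.

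From the deposited intensities, log2(signal + 16) was computed. A gene was represented by its probe set with the highest mean and tested where it exceeded its array's 40th percentile on at least 3 arrays. Group means over all 15 arrays were fitted with limma 3.58.1 in R 4.3.3 (empirical Bayes with an intensity trend, 10 residual and 5.56 prior degrees of freedom). Tests were two-sided and Benjamini-Hochberg adjusted over all genes tested. Each CIA group was compared with naive, and severe and mild with no swelling. Also fitted were the steps between swollen groups, a slope with scores from 0 to 3, and an F test. The fit was tested on simulated data.

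Named genes are the 7 members with each probe set, the 3 genes that correlate best with each, and, of each pathway list, up to 3 with the lowest p in severe swelling, those called against most of the list, and all members of a count of 5 or fewer. The members and lists were chosen with earlier results of these data known. Alternatives were the pseudocount (1 or 64), the filter (none, or the 60th percentile), 3 scalings, the mean of probe sets, each probe set, no trend, array weights, a replicate block, only the groups compared, and each array left out.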

Additional observations from a re-analysis of the deposited data

How the results depend on the processing

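Of 1266 values of the 7 genes under the alternatives, 1137 kept their direction and side of the threshold, 53 lost a call, 13 gained one and 63 changed sign. Of these 63, 7 were calls as reported, turned by a second probe set, and 56 were called in neither setting. The 1137 is no measure of sturdiness, because some alternatives repeat the main fold change by construction. These are no filter, no trend, the replicate block, only the groups compared, and the gene's own probe set.

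For Zc3h12a, the second probe set gave -0.43 in severe, -0.0878 in mild, -0.13 in moderate and -0.0343 in no swelling against naive, and -0.12 for the slope. It gave -0.39 for severe and -0.0534 for mild against no swelling, and -0.29 for severe against moderate. The mean of both probe sets gave 0.25 in severe swelling against naive. For Il17rc, the dim second probe set gave 0.26 in severe swelling against naive, -0.39 in moderate against mild, 0.24 in severe against moderate and -0.0388 for the slope. For Il17ra in no swelling against naive, the second probe set gave -0.35 and the mean of both -0.0172. For Nfkbiz in severe against moderate, the other probe sets gave 0.39 and 0.31, the mean of its probe sets 0.23, array weights 0.045 and quantile normalization 0.0193.

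Scaling turned uncalled values of the genes without a rise. Quantile normalization and aligned medians gave -0.0341 and -0.022 for Traf3ip2 in severe against naive, and -0.17 and -0.12 in mild against no swelling. For Il17a they gave -0.0599 and -0.0597 in mild and -0.0914 and -0.0881 in severe against no swelling, and -0.0366 and -0.0364 for the slope. For Il23a they gave -0.0373 and -0.12 in mild against no swelling, and -0.0200 and -0.0714 in severe against moderate. Quantile normalization gave -0.00777 for the Traf3ip2 slope. Scaling on 18 hybridization control probe sets gave Traf3ip2 0.49 in mild and 0.32 in moderate swelling against naive, and Il23a -0.0218 in severe against moderate. Il23a in mild against no swelling was -0.54 with array weights and -0.00945 with a pseudocount of 64.

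Leaving out 1 array moved Traf3ip2 between -0.00543 and 0.29 in severe, -0.23 and 0.00174 in mild and -0.23 and 0.0267 in no swelling against naive. It ranged from -0.11 to 0.0978 in mild against no swelling and from -0.18 to 0.0108 in moderate against mild. Il17a ranged from -0.0407 to 0.15 in mild against no swelling, -0.19 to 0.00196 in moderate against mild and -0.0208 to 0.21 in moderate against naive. Il23a ranged from -0.25 to 0.36 in mild against no swelling, -0.0603 to 0.10 in severe against moderate and -1.04 to -0.60 in severe against naive. Il17rc ranged from -0.19 to 0.59 in mild against no swelling, and Nfkbiz from -0.11 to 0.13 in severe against moderate. Zc3h12a ranged from -0.29 to 0.0599 in moderate against mild and -0.0786 to 0.27 in no swelling against naive. Traf3ip2 was called only with the hybridization controls, in mild against no swelling (0.72, limma adjusted p = 0.0430), where the median of all genes was 0.75.

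Counts of all genes called moved most where few were called. Against 475 genes for no swelling versus naive, quantile normalization gave 313, scaling on the hybridization controls 120, no intensity trend 297 and array weights 1153, and leaving out 1 array gave 126 to 549. Against 943 for moderate versus mild swelling, the hybridization controls gave 314, array weights 4560 and a fit of only the groups compared 28, and leaving out 1 array gave 196 to 2009. Severe against moderate gave 0 to 2. Array weights gave 9265 for mild against naive; their estimation did not converge, and mild replicate 1 had a weight of 24.9. The causes were not tested.

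The replicate number as a block gave 300 genes for no swelling versus naive, where Nfkbiz then had an adjusted p of 0.0503 in limma. The numbers did not pair the arrays: same-numbered arrays correlated between -0.50 and 0.33 in their deviations from group means, and 0 of 15 correlated best with its own number. Signal over background limits Il23a, Il17rc in naive joints, its second probe set and, in part, Il17a. It also limits the second probe set of Il17ra in naive and unswollen joints, and 1 further Nfkbiz probe set in naive joints.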
